A study of Homo sapiens with 2 samples.

Results

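Reelin signalling and the genes that mark Cajal-Retzius neurons were examined in human cerebral organoids at the level of single barcoded cells and nuclei. The set held 10 genes of the 62704 in the deposited matrices, taken by gene name: the ligand RELN, its receptors VLDLR and LRP8, the adaptor DAB1, and TP73, LHX1, LHX5, EBF2, EBF3 and NDNF. Each of the 10 was found in both libraries. Members were counted in barcodes that exceeded 500 genes and 1000 transcripts and whose mitochondrial share did not exceed 20%, which left 20178 cells and 14228 nuclei.

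The organoids were grown from the human embryonic stem cell line H9, for which the labels give no genetic change. The cell library held control organoids (CO) made with a commercial cerebral organoid kit and collected at days 45, 55 and 70. It also held dissociated organoids (DISS), taken apart to a suspension at day 45, reaggregated and collected at days 48, 55 and 70, and constrained organoids (CONS), kept in agarose and collected at day 55. The nuclei library held control material at day 45, from whole organoids and from cell suspensions. All barcodes of a library carried 1 sample name in the deposited metadata, so each library was 1 sample, and conditions, days and replicates could not be compared. Values below are therefore given without a test, with 95% intervals that cover counting error only. Levels are in CPM, the summed transcripts of a gene per 1000000 transcripts of the same barcodes, and they are compared within a gene, never between genes.

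Reelin is a large secreted glycoprotein that Cajal-Retzius neurons of the marginal zone release while the cortex is built. It binds the receptors VLDLR and ApoER2 (the product of LRP8) on migrating neurons and radial glia, which leads Src family kinases to phosphorylate the adaptor DAB1, and phosphorylated DAB1 is later removed through a ubiquitin ligase. Cajal-Retzius neurons arise from the cortical hem and other borders of the pallium, and TP73, LHX1, LHX5, EBF2, EBF3 and NDNF are known from them to differing degrees.

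The RELN gene spans 518 kb on the minus strand of GRCh38 chromosome 7 (chr7:103471381-103989658), and DAB1 spans 1552 kb on chromosome 1 (chr1:56994778-58546734). TP73 lies at chr1:3652516-3736201 and EBF3 at chr10:129835233-129973053. The 250 bases before the RefSeq start (GRCh38.p14) are shown for RELN, for the first 2 of the 3 listed TP73 starts and for EBF3. Transcripts of these genes were high together in 1 group of barcodes of each library described below, though EBF3 was higher in other groups of the nuclei. Capitals mark every match, on either strand, to the palindromic EBF consensus, a homeodomain core (TAATTA), an E-box (CANNTG) or a GC box (GGGCGG). The windows lie at chr7:103989659-103989908 (minus strand), chr1:3652266-3652515 and chr1:3690422-3690671 (plus strand, both for TP73) and chr10:129964275-129964524 (minus strand), and none overlaps an exon of its own gene.
RELN: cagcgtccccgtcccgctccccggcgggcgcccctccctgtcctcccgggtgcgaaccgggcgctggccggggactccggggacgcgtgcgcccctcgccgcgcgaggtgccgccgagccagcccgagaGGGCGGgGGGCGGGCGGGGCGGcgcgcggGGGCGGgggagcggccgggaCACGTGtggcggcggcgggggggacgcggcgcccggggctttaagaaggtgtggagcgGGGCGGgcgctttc
TP73, outer start: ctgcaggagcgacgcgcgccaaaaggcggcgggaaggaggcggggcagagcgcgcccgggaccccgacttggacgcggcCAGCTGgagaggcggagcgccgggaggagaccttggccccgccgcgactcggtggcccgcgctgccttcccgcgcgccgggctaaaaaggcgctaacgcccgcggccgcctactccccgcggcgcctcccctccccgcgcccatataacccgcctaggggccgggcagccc
TP73, next start: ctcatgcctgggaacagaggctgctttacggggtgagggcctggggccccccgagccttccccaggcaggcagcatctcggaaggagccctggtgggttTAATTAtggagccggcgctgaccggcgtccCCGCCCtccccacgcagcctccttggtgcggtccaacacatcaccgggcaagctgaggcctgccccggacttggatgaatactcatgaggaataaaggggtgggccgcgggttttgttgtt
EBF3: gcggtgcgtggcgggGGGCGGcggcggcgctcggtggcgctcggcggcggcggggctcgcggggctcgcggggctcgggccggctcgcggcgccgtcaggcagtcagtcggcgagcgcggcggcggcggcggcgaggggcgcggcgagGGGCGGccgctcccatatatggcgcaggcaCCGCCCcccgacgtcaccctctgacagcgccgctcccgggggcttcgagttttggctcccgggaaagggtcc

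The RELN window was 83.2% G and C and held 6 GC boxes and 1 E-box. The outer TP73 window was 77.2% G and C, the next one 64%, and the EBF3 window 81.2%, against a median of 58% over the 34786 windows of the RefSeq table. The homeodomain core stood in the second TP73 window and in 4.37% of all windows. GC boxes stood in 42.6% and E-boxes in 61.8% of all windows, and the EBF consensus, in 1.06% of them, was not among the letters of these 4. These matches describe sequence and say nothing of what binds there.

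The cell library held 254967545 transcripts in 1303455 barcodes and the nuclei library 82339738 in 197446, and the kept barcodes had medians of 2615 and 3890 transcripts. The libraries shared 99 kept barcode names. In the cells, 5838 of the kept barcodes (28.9%) fell into 130 families of 10 or more that shared their first 2 well barcodes and their sub-library, the separately sequenced part of a library, where 0.547 barcodes per combination were present on average, and 407 barcodes above 50000 transcripts held 28.5% of the kept transcripts. Barcodes with 10 to 100 transcripts were summed as a measure of free RNA. Clusters were built without the 10 members and 40 further genes of the pathway, and 9704 cells and 2461 nuclei fell in clusters left without a cell type name.

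Cajal-Retzius-like barcodes were taken from 1 cluster of each library, 189 cells and 829 nuclei, named from 11 markers that hold none of the 10 members. Their median depths were 7307 and 3804 transcripts. Another cluster of the cells, 953 barcodes led by DOCK2, also met 5 of the 11 markers. The naming rule had called it Cajal-Retzius-like, and it was left unnamed by hand after its values were seen. The nuclei cluster that kept the name met the same 5 markers and no others. It had EBF1 among its 10 leading genes, whereas the DOCK2-led cells had none of the 5 there. Counting the DOCK2-led cluster too lowered the RELN ratio of the cells to other barcodes from 49.7 to 15.8 and turned the DAB1 ratio from 0.629 to 1.09, so these ratios depend on that choice. In the cells, 11 of 11 markers were higher in the Cajal-Retzius-like cluster than elsewhere, and their summed level was 966 CPM against 118 CPM. Of these, BARHL2 had 2 counts and INHBA 6 counts there. In the nuclei 8 of 11 were higher, with sums of 1392 and 163 CPM, while CALB2, CXCR4 and INHBA were not (ratios of 0.955, 0.812 and 0.885). EBF1 alone gave 585 CPM of the sum in the cells and 881 CPM of that in the nuclei. The name was less secure in the nuclei for another reason: the summed level of 7 inhibitory neuron markers was 311 CPM in the cluster against 13.2 CPM elsewhere, 7 of 7 being higher, with GAD1 at 158 CPM. In the cells this sum was 82.8 CPM against 16.4 CPM, with 5 of 7 higher and DLX5 and DLX6-AS1 at 0. Summed cortical hem markers were 387 CPM against 228 CPM in the cells and 277 against 297 CPM in the nuclei. The part of these markers in the results was not tested, beyond the levels of GAD1 and GAD2 in the sub-clusters given below. The values of this class in the nuclei describe a mixed cluster, of which 92 barcodes (11.1%) fell in the TP73-led sub-cluster described below. The cluster of the cells was also sensitive to settings, where a Cajal-Retzius marker had to be among the 10 leading genes. No cluster met this and the marker count with a mitochondrial limit of 10%, a coarser clustering or the families left out. In the last 2 cases the best match met 4 and 7 of the markers but had none among its 10 leading genes. With the mitochondrial limit the best match, 436 barcodes, took the name cortical hem-like instead. The clusters that matched the reported one best had RELN ratios to other barcodes of 28.2, 16.3 (in 29 barcodes) and 91.8. The 29 barcodes, led by TPH1 and PCAT4, were 15.3% of the reported cluster, so the ratio of 16.3 does not describe that cluster as a whole.

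RELN was carried by these clusters far above any other. In the cells the Cajal-Retzius-like cluster held 3242 RELN transcripts, a level of 1666 CPM (1609 to 1725), and in the nuclei 5182 transcripts, 1215 CPM (1183 to 1249). All other barcodes together had 33.5 CPM in the cells and 22.4 CPM in the nuclei, so the ratios were 49.7 (47.5 to 51.9) and 54.3 (51.3 to 57.5). The cluster held 1.24% of the kept transcripts but 38.4% of RELN transcripts in the cells, and 5.91% of the transcripts but 77.3% of RELN in the nuclei. The level was uneven over the 8 technical sub-libraries of the cells, from 261 to 2864 CPM (SD 917), whereas the 2 nuclei sub-libraries gave 1074 and 1401 CPM. No cell of this cluster belonged to a family. In the nuclei, where each combination of well barcodes and sub-library held 6.18 barcodes on average, 237 of the 829 were in combinations of 10 or more, and RELN was at 1179 CPM without them. Leaving out barcodes above 50000 transcripts gave 1651 CPM in the cells and 1272 CPM in the nuclei.

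Below this cluster, the cortical hem-like cells came next at 211 CPM (194 to 229), in 319 barcodes led by BMP3 and PAX3, of which 62.1% came from 1 first-round well. The unnamed cluster of 953 cells led by DOCK2, CCDC26 and ALDH1A2 had 99.6 CPM, and 1 of the choroid plexus-like clusters had 86.0 CPM. The choroid plexus-like cells as a whole stood at 42.3 CPM (39.3 to 45.4) and the unnamed cells at 39.3 CPM (37.8 to 40.8), which overlap within counting error. Intermediate progenitor cell (IPC)-like cells at 21.4 CPM and dividing-like cells at 20.6 CPM could not be set apart, nor could radial glia (RG)-like cells at 13.2 CPM and excitatory neuron-like cells at 12.8 CPM. Free RNA in the same library had 68.6 CPM (65.8 to 71.4). The share of free RNA in the kept barcodes was not measured, so its part in the lower levels was not tested.

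In the nuclei, RELN outside the Cajal-Retzius-like cluster lay below the free RNA level of 96.1 CPM (88.7 to 104) in each of the other 18 clusters, in 1 of them (88.8 CPM) within its interval. Excitatory neuron-like nuclei were highest as a class at 47.9 CPM (44.8 to 51.1), with 88.8, 85.7 and 61.3 CPM in 3 of their clusters. RG-like, IPC-like, dividing-like and choroid plexus-like nuclei lay between 3.68 and 7.16 CPM, well under the excitatory neuron-like level. No nuclei cluster was named cortical hem-like, and an unnamed cluster of 937 nuclei led by RSPO2, with the hem regulator LMX1A among its leading genes, had 26.3 CPM of RELN.

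**Figure D1:**
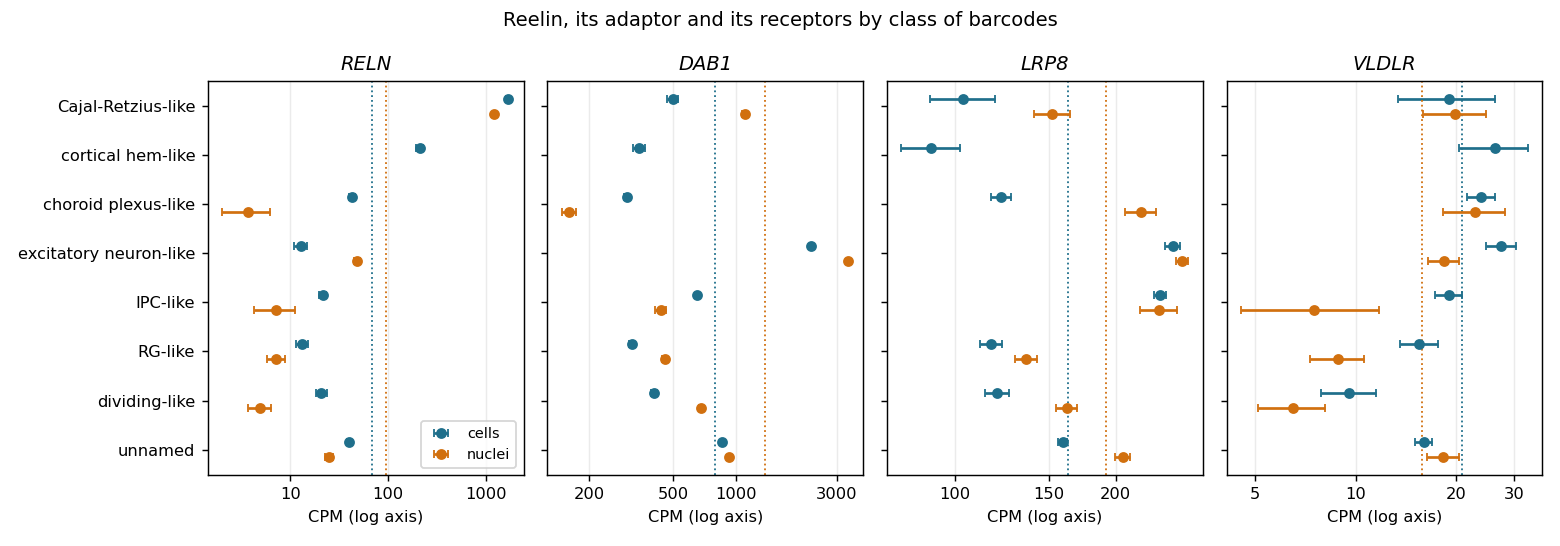
Levels of RELN, DAB1, LRP8 and VLDLR in CPM on log axes by class of barcodes, for cells (blue) and nuclei (orange), with points at the summed level, bars at the 95% counting interval and dotted lines at the free RNA level of each library. RELN stands at 1666 and 1215 CPM in the Cajal-Retzius-like class, and DAB1 is highest in the excitatory neuron-like class at 2263 and 3390 CPM.

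Detection placed the same classes of cells first. After each barcode was thinned to 1000 transcripts, RELN was found in 32.3% (25.7 to 39.4) of Cajal-Retzius-like cells, 10.7% (7.49 to 14.6) of cortical hem-like cells, 1.38% of RG-like cells and 1.45% of excitatory neuron-like cells. In the nuclei it was found in 22.2% (19.4 to 25.2) of the Cajal-Retzius-like cluster, 3.41% of excitatory neuron-like nuclei, 0.841% of RG-like nuclei and 0 of 358 choroid plexus-like nuclei. Of the 666 thinned cells and 399 thinned nuclei with any RELN, 9.16% and 46.1% were Cajal-Retzius-like. In the cells 42.6% were unnamed and 15.9% choroid plexus-like, and in the nuclei 34.1% were excitatory neuron-like. With 2 or more RELN transcripts, 41.2% of the cells and 74.7% of the nuclei were Cajal-Retzius-like, and 20% of the nuclei excitatory neuron-like.

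RELN was far from even within the cluster. In 84 of the 189 cells (44.4%) and 553 of the 829 nuclei (66.7%) no RELN transcript was present before thinning. The median barcode had 101 CPM in the cells and 0 in the nuclei, while the highest reached 24041 and 27606 CPM. The 19 cells and 83 nuclei with the most RELN transcripts, 1 in 10 of each cluster, held 75.1% and 85.6% of the cluster's RELN. These were ranked by count, which also grows with the depth of a barcode. Were the level the same in every barcode, thinning would have left RELN in 81.1% and 70.3% of them, far above the 32.3% and 22.2% found. Above 1000 CPM stood 56 cells (29.6%) and 149 nuclei (18%).

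**Figure D2:**
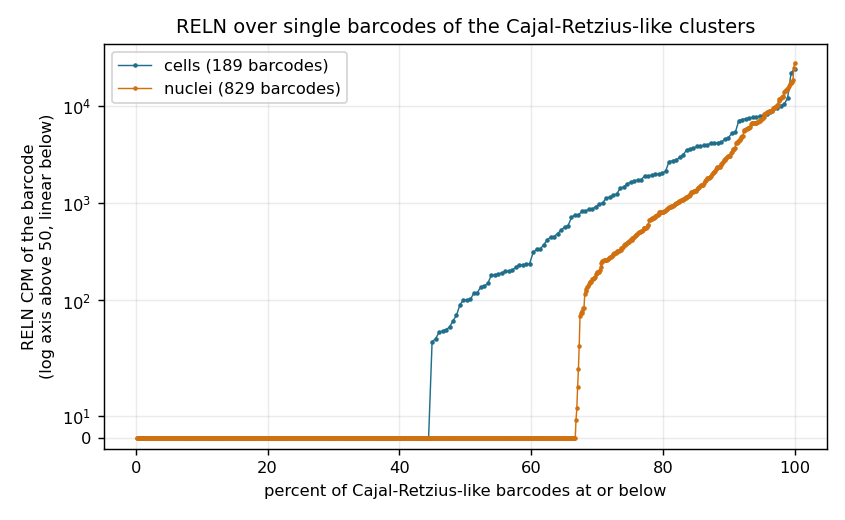
RELN in CPM of each Cajal-Retzius-like barcode (log axis above 50 CPM, linear below), ordered by level, against the percent of barcodes at or below it, for 189 cells and 829 nuclei. The curve leaves 0 at 44.4% in the cells and 66.7% in the nuclei and ends at 24041 and 27606 CPM.

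Sub-clusters of each Cajal-Retzius-like cluster, again built without the members, placed much of this RELN in few barcodes at the reported resolution. In the cells, 54 barcodes (28.6%) led by ENSG00000226965, LINC02058, TP73, RELN and SVEP1 had RELN at 4977 CPM (4793 to 5167) and held 84.9% of the cluster's RELN transcripts and 32.5% of the library's. In the nuclei, 92 barcodes (11.1%) led by TP73, RSPO2, SVEP1, ENSG00000226965 and LMX1A had 6001 CPM (5780 to 6228), 53.8% of the cluster's RELN and 41.6% of the library's. These sub-clusters drew on 14 and 12 first-round wells, with at most 27.8% and 18.5% of their barcodes from 1 well. They are called the TP73-led sub-clusters here, since TP73 was a leading gene of both. They were made after the spread of RELN in the clusters had been seen. At the finer resolution of 1, the best-matched sub-cluster of the cells had 33 barcodes, 32 of them among the 54. It had RELN at 2655 CPM against 1510 CPM in the rest of the cluster and held 21.7% of its RELN. The other TP73-led cells counted in the rest there. This holds for each value of the cells at the finer sub-clustering below, so both sides of those contrasts changed.

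The other members differed in how they fell on these sub-clusters. TP73, the p53 family member that keeps Cajal-Retzius neurons alive, was at 161 CPM (129 to 198) in the cells and 177 CPM (140 to 219) in the nuclei there. In the rest of the cluster it was at 9.33 and 7.63 CPM. These sub-clusters were made after RELN was seen and named for TP73, so this contrast is not a separate finding. At the finer sub-clustering of the cells TP73 was at 181 against 32.1 CPM. The LIM homeodomain gene LHX1 was at 88.7 CPM in the TP73-led cells against 38.8 CPM in the rest of the cluster, and at 112 against 32.6 CPM in the nuclei. In the nuclei it was as high, 142 CPM, in the GAD1-rich sub-cluster led by SKOR2 described below. At a finer sub-clustering of the cells the LHX1 contrast was lost (56.6 against 52.4 CPM). LHX5, its close relative, which is needed for the making of Cajal-Retzius neurons in the mouse hem, was at 47.0 against 14.4 CPM and 75.3 against 10.3 CPM. NDNF, which encodes a secreted neuron-derived factor, was at 56.1 against 32.3 CPM in the cells and 68.9 against 7.37 CPM in the nuclei. The finer sub-clustering turned NDNF in the cells to 18.9 against 42.3 CPM, with the other TP73-led cells counted in the rest.

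EBF3 and EBF2, helix-loop-helix factors of the Collier/Olf/EBF family, differed less between the TP73-led barcodes and the rest of the cluster, or the other way. EBF3 was at 555 CPM there against 358 CPM in the rest of the cluster in the cells, and at 672 against 467 CPM in the nuclei, and in the cells the finer sub-clustering turned it to 388 against 418 CPM. Its highest level in the nuclei was 1495 CPM, in 85 barcodes led by SKOR2 and CA8, where GAD1 was at 801 CPM and RELN at 75 CPM. A sub-cluster of 131 nuclei had EBF3 at 852 CPM, also above the TP73-led nuclei. EBF2 was lower in the TP73-led cells than in the rest of the cluster (99.5 against 223 CPM) and close to it in the nuclei (370 against 377 CPM). The inhibitory markers behaved otherwise: GAD1, the enzyme of GABA synthesis, stood at 1.81 CPM in the TP73-led cells and 10.8 CPM in the nuclei, and GAD2 at 1.81 and 0 CPM. EBF1, the naming marker with the largest part of the summed marker level, lay mostly outside the TP73-led barcodes. It was at 59.7 CPM in the TP73-led cells and 110 CPM in the nuclei, 2.90% and 1.36% of the cluster's EBF1.

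**Figure D3:**
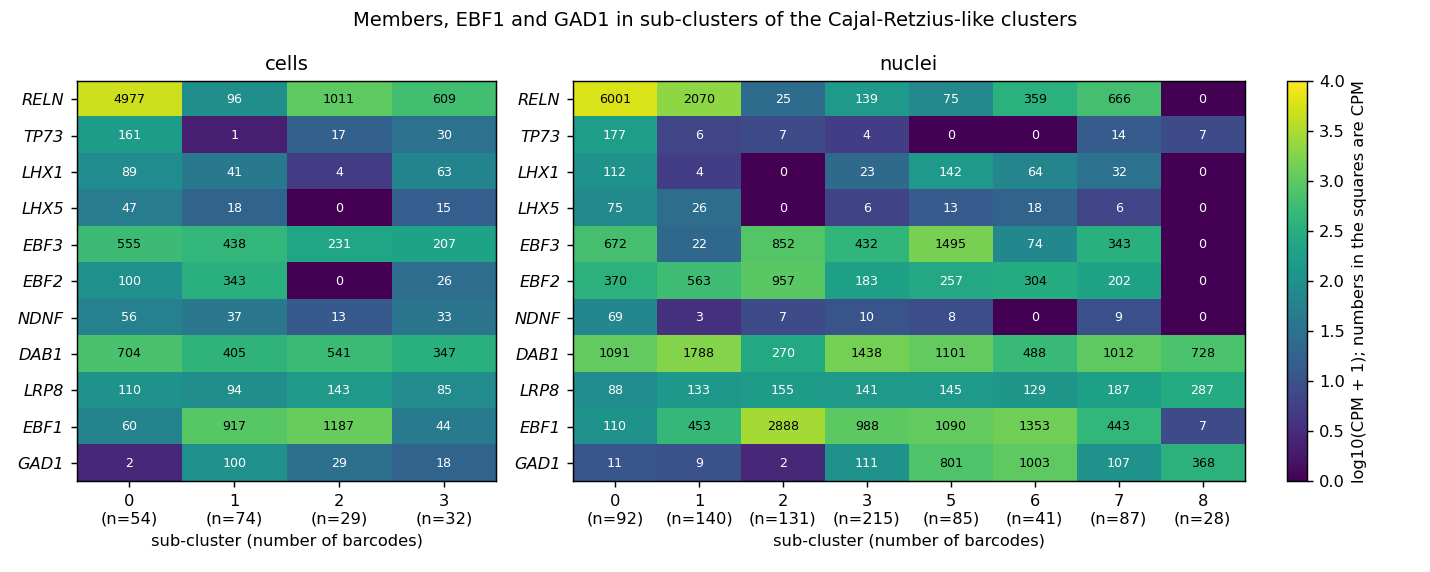
Levels of 9 members, EBF1 and GAD1 in sub-clusters of the Cajal-Retzius-like clusters with 20 or more barcodes, coloured by log10(CPM + 1) with the CPM printed in each square. Sub-cluster 0 of each library is the TP73-led one and has the highest RELN, 4977 and 6001 CPM, and the highest TP73, 161 and 177 CPM.

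Not every barcode rich in RELN was of this kind. A sub-cluster of 140 nuclei with THRB, INPP4B, PRR16 and RFTN1 among its leading genes had RELN at 2070 CPM (1964 to 2181), 21.2% of the library's RELN, with TP73 at 5.83 CPM, LHX1 at 4.37 CPM and EBF3 at 21.9 CPM. EBF2, at 563 CPM, was higher there than in the TP73-led nuclei, and LHX5 was at 26.2 CPM, 24.3% of the cluster's LHX5. DAB1 was at 1788 CPM (1689 to 1890) in it. A sub-cluster of 87 nuclei led by the division genes EXO1 and KIF18B, with a median depth of 10384 transcripts, had RELN at 666 CPM. In the cells, 29 barcodes led by PCAT4, TPH1, CRX and LHX4 had RELN at 1011 CPM, with TP73 at 16.8 CPM and no count of LHX5 or EBF2, which allows up to 12.6 CPM of each. EBF1 was at 1187 CPM and EBF3 at 231 CPM in them. These came from 4 wells, 58.6% from 1 of them. The largest sub-cluster of the cells, 74 barcodes led by ROBO3, GREB1L and MEIS1, had RELN at 96.2 CPM, EBF1 at 917 CPM and GAD1 at 99.6 CPM.

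Detection was also counted in the same single nuclei, so it does not stand apart from the levels above. After thinning, TP73 was found in 10.9% (6.77 to 16.3) of the 184 Cajal-Retzius-like nuclei with RELN and in 0.310% (0.0376 to 1.12) of the 645 without it. For LHX5 the shares were 5.98% (3.02 to 10.4) and 0.775% (0.252 to 1.80). EBF3 was found in 29.9% and 29.6%, shares that did not differ at this depth. Barcodes with and without RELN had like median depths, 3905 and 3797 transcripts. In the 61 cells with RELN, TP73 was found in 8.20% (2.72 to 18.1) against 3.91% (1.28 to 8.88) of the 128 without it, which overlap.

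Against all other barcodes, 7 of the 10 members in the cells and 6 in the nuclei were at least 2-fold higher in the Cajal-Retzius-like cluster, and none was 2-fold lower. Of the genes with 50 or more counts, 16.6% of 28471 were 2-fold higher in the cells and 7.53% of 20150 in the nuclei, while 7.8% and 12.1% were 2-fold lower. In the nuclei, LHX1 and LHX5 had 48 and 24 counts outside the cluster and so reached this minimum only through it. Their calls there are given as description only, which leaves RELN, TP73, EBF2 and EBF3 of the 6 to set beside the share over all genes. Where the whole counting interval had to pass 2-fold, a rule added after the values were seen, the same 7 and 6 members passed, against 2.16% and 3.97% of genes. In the nuclei LHX1 and LHX5 were again among the 6 and are not set beside that share. The median member ratio was 2.66 on the log2 scale in the cells and 2.29 in the nuclei, beside medians of 0.12 and -0.09 over the genes tested. The median of the nuclei includes LHX1 and LHX5 and is likewise description only.

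LHX1 was at 52.9 CPM in the Cajal-Retzius-like cells and 41.3 CPM in the nuclei, with ratios to all other barcodes of 58.3 (45.2 to 75.2) and 58.4 (42.4 to 80.3). LHX5 was at 23.6 and 17.4 CPM, with ratios of 37.1 (26.2 to 52.6) and 49.1 (31.0 to 77.8). EBF3 was at 414 and 489 CPM, with ratios of 26.8 (24.8 to 29.0) and 25.9 (24.2 to 27.8). These 3 and RELN had ratios above 20 in both libraries. LHX1 and LHX5 have neighbouring transcripts, LHX1-DT and LHX5-AS1, that are read from the other strand, and whether counting used the strand is not given in the sources used here.

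TP73, EBF2 and NDNF had smaller ratios, and other classes held them too. TP73 was at 52.4 and 26.0 CPM, ratios of 8.04 (6.56 to 9.86) and 6.75 (5.40 to 8.42), but choroid plexus-like barcodes held 26.1 CPM in the cells and 44.9 CPM in the nuclei. They had 42.6% of the cell library's TP73 transcripts and 45.8% of those of the nuclei. EBF2 was at 188 and 376 CPM, ratios of 2.99 (2.69 to 3.32) and 3.56 (3.37 to 3.76). It was higher still in an IPC-like cluster of the cells led by NHLH1 (319 CPM), in IPC-like nuclei (504 CPM) and in an excitatory neuron-like cluster of the nuclei in which EBF2 itself was a leading gene (1022 CPM). NDNF was at 39.1 CPM in the Cajal-Retzius-like cells, a ratio of 4.99 (3.96 to 6.29), and at 14.1 CPM in the nuclei, a ratio of 1.11 (0.854 to 1.44). Choroid plexus-like barcodes had NDNF at 41.9 CPM in the cells and 75.1 CPM in the nuclei.

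**Figure D4:**
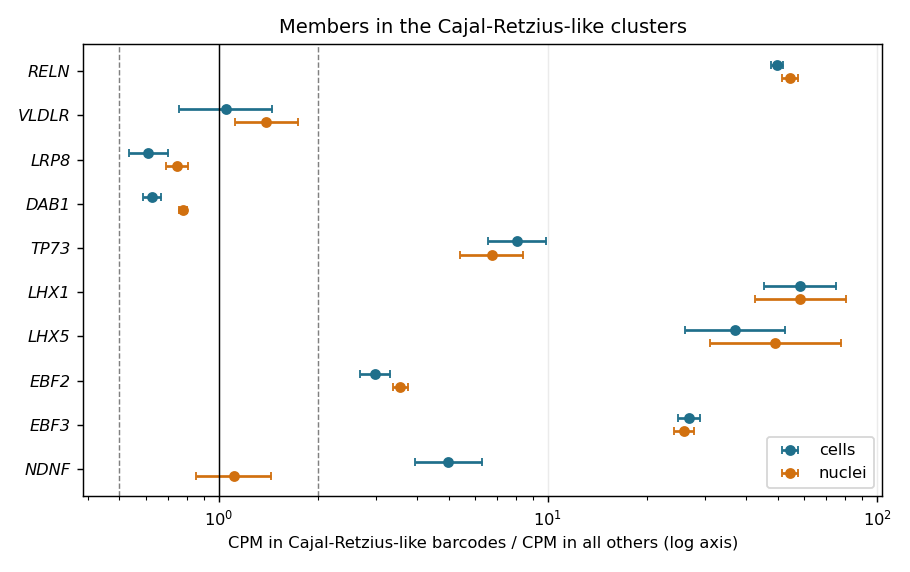
Ratio of CPM in Cajal-Retzius-like barcodes to CPM in all others for the 10 members on a log axis, with 95% counting intervals, for cells (blue) and nuclei (orange), with lines at 1 and at 2-fold either way. LHX1, RELN, LHX5 and EBF3 lie above 20 in both libraries, and DAB1 and LRP8 lie below 1.

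DAB1, without which the signal is not passed on, was highest in excitatory neuron-like barcodes, at 2263 CPM (2238 to 2288) in the cells and 3390 CPM (3363 to 3416) in the nuclei. All other barcodes had 644 and 692 CPM, so the ratios were 3.51 (3.47 to 3.56) and 4.90 (4.84 to 4.96). Of the genes tested, 3.09% in the cells and 7.17% in the nuclei were 2-fold higher in excitatory neuron-like barcodes, and 13.8% and 17.9% 2-fold lower. These barcodes held 25.6% of DAB1 transcripts in the cells and 63.1% in the nuclei. The level spread widely among the 5 excitatory neuron-like clusters of the nuclei, from 5651 CPM in the cluster led by SLC24A2 and ADAMTS3 and 5539 CPM in the next to 1983, 680 and 202 CPM. Over the 8 sub-libraries of the cells the excitatory neuron-like level ran from 2181 to 2381 CPM.

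DAB1 in the other named classes was lower. In the cells it was at 651 CPM in IPC-like, 499 CPM in Cajal-Retzius-like, 407 CPM in dividing-like, 345 CPM in cortical hem-like, 320 CPM in RG-like and 302 CPM in choroid plexus-like barcodes. In the nuclei Cajal-Retzius-like barcodes came second among the named classes at 1095 CPM, above dividing-like (684 CPM), RG-like (458 CPM), IPC-like (439 CPM) and choroid plexus-like ones (161 CPM). That cluster was mixed, and DAB1 in its sub-clusters ran from 270 CPM, in 131 nuclei, to 1788 CPM, in the 140 nuclei with THRB. The choroid plexus level is the lowest in both libraries. The ratio of the Cajal-Retzius-like cluster to all others was 0.629 in the cells and 0.778 in the nuclei, and it turned to 1.09 and 1.08 in 1 other choice of clusters in each library. Free RNA had DAB1 at 795 and 1367 CPM, close to the levels of 788 and 1389 CPM over the kept barcodes. The other named classes lay below that level and above the choroid plexus-like one, beyond counting error. After thinning, DAB1 was found in 77.6% of excitatory neuron-like cells and 30.1% of choroid plexus-like cells, and in 64.3% and 10.1% of the nuclei of those classes.

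LRP8, the ApoER2 receptor gene, was highest in the neuronal lineage. Excitatory neuron-like barcodes had 256 CPM (247 to 264) in the cells and 266 CPM (259 to 274) in the nuclei, and IPC-like barcodes had 242 CPM (236 to 248) and 241 CPM (222 to 261). These classes overlapped within counting error in each library. RG-like and dividing-like barcodes lay between 117 and 162 CPM over both libraries. Choroid plexus-like barcodes were at 122 CPM in the cells and 223 CPM in the nuclei, where they were ciliated by their leading genes (ADGB, DYNLT5, TEKT1). Their level in the nuclei lay within the IPC-like interval, so these 2 classes could not be set apart there. The Cajal-Retzius-like cluster had 103 CPM in the cells and 152 CPM in the nuclei, ratios of 0.612 and 0.746 to all other barcodes. Free RNA had LRP8 at 163 and 192 CPM, below the excitatory neuron-like and IPC-like levels in both libraries and above the Cajal-Retzius-like ones. Excitatory neuron-like ratios were 1.61 (1.55 to 1.66) and 1.5 (1.45 to 1.55), under the 2-fold limit.

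VLDLR, the other receptor gene, was sparse in both libraries, with 2850 transcripts over all kept cells and 1055 over the nuclei. By class it ran from 9.58 CPM in dividing-like to 27.4 CPM in excitatory neuron-like cells, and from 6.47 to 22.9 CPM in the nuclei, where choroid plexus-like, Cajal-Retzius-like and excitatory neuron-like barcodes overlapped within counting error. Free RNA was at 20.9 and 15.9 CPM. The Cajal-Retzius-like cluster had 19 and 19.9 CPM, ratios of 1.05 (0.759 to 1.45) and 1.40 (1.12 to 1.74). In its TP73-led nuclei, VLDLR had 2 transcripts, 4.31 CPM (0.521 to 15.6), against 21.8 CPM in the rest of the cluster. The TP73-led cells had 14.5 CPM (6.25 to 28.5) against 20.8 CPM, which could not be set apart and turned to 26.4 against 17.9 CPM at the finer sub-clustering.

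Sending and receiving genes were also read together in single barcodes. Over all thinned cells, DAB1 was found in 45.8% (42.0 to 49.7) of the 666 with RELN and 44.8% (44.1 to 45.5) of the others, and over all nuclei in 50.1% (45.1 to 55.1) of 399 and 43.8% (43.0 to 44.6). Within the Cajal-Retzius-like cluster the gap was wider: 45.9% (33.1 to 59.2) with RELN against 22.7% (15.7 to 30.9) without it in the cells, and 53.3% (45.8 to 60.6) against 40.5% (36.7 to 44.4) in the nuclei. By sub-cluster, DAB1 was found in 35.9% (26.1 to 46.5) of the TP73-led nuclei and in 67.9% (59.4 to 75.5) of the sub-cluster with THRB. The DAB1 level of the TP73-led barcodes was 704 CPM against 417 CPM in the rest of the cluster in the cells, turned to 339 against 524 CPM at the finer sub-clustering, and was 1091 against 1096 CPM in the nuclei. LRP8 went the other way without clearing its interval, at 9.78% (5.90 to 15) of the nuclei with RELN and 14.6% (11.9 to 17.5) of those without. The summed LRP8 level was 88.3 CPM (63.3 to 120) in the TP73-led nuclei against 160 CPM in the rest of the cluster. In the TP73-led cells it was 110 CPM (84.4 to 142) against 101 CPM, and 132 against 98.8 CPM at the finer sub-clustering, so the lower level was not seen there. Unthinned, VLDLR had 6 counts (7.35 CPM) in the nuclei above 1000 CPM of RELN, 24.2 CPM in those with less RELN and 22.4 CPM in those with none. The summed level of DAB1 in barcodes above 1000 CPM of RELN was 745 CPM in the cells, against 394 CPM in those with no RELN, and 1173 against 921 CPM in the nuclei. Barcodes between these limits broke the order, with 370 CPM in the cells, near those with no RELN, and 1443 CPM in the nuclei, above those richest in RELN.

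The other 40 genes of the pathway were counted by role, and each had 50 or more counts in both libraries. In the Cajal-Retzius-like cells 2 were 2-fold higher and 2 lower, and in the nuclei none was higher and 6 were lower. Beside the 16.6% and 7.53% of all genes that were higher and the 7.8% and 12.1% that were lower, these counts are at or below the background or close to it. With the whole interval past 2-fold (1.13% and 3.11% of genes were lower by that rule), 1 gene was left in each library, ADAMTS3, a protease that cleaves and inactivates reelin, with ratios of 0.0991 and 0.139. The higher ones in the cells were ADAMTS4 at 2.43, another reelin-cleaving protease, and CDK5 at 2.50, a kinase of neuronal migration. PLAT, which encodes tissue plasminogen activator, was lower in both libraries (ratios of 0.286 and 0.296). CLU, ADAMTS5 and MYLIP, the ligase that removes the receptors, had ratios of 0.476, 0.434 and 0.467 in the nuclei. THBS1 had 3 counts there and a ratio of 0.395 (0.126 to 1.24), which was not set apart from no difference. The median ratio of the 40 was -0.09 on the log2 scale in the cells and -0.14 in the nuclei, beside 0.12 and -0.09 over all genes tested. The 3 kinases and the 4 genes that shut off DAB1 signalling (CUL5, RNF7, SOCS6, SOCS7) gave no 2-fold ratio in either library.

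In excitatory neuron-like barcodes the same list gave 4 higher genes in each library, ADAMTS3, ADAMTS4, ADAMTS5 and the CDK5 activator CDK5R1, and 6 lower genes in the cells and 5 in the nuclei, where 3.09% and 7.17% of all genes were higher and 13.8% and 17.9% lower. ADAMTS3 stood at 366 CPM against 76.8 CPM elsewhere in the cells, a ratio of 4.76 (4.61 to 4.92), and at 607 against 57.9 CPM in the nuclei, a ratio of 10.5 (10.1 to 10.9). CDK5R1 had ratios of 2.29 and 4.00. CLU, THBS1 and NECTIN3 were among the genes lower in both libraries, APOE and YES1 among those lower in the cells, and PLAT among those lower in the nuclei. The 21 genes downstream of DAB1 had medians of 0.06 and 0.05 on the log2 scale, beside -0.19 and -0.18 over all genes tested.

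Members were also summed by first-round well, and what each well received is not given in the metadata. Over the 48 wells of the cells RELN ran from 5.13 to 348 CPM with a median of 21.1 CPM, and over the 12 wells of the nuclei from 30.2 to 208 CPM with a median of 95.9 CPM. DAB1 ran from 178 to 1861 CPM (median 839) and from 883 to 2082 CPM (median 1276). LRP8 ran from 57.5 to 259 CPM (median 172) and from 158 to 248 CPM (median 213). VLDLR ran from 0 to 46.0 CPM (median 17.8) and from 11.1 to 21.7 CPM (median 14.9). The Cajal-Retzius-like cells were found in 18 of the 48 wells, none in the other 30 and at most 43 in 1 well, where they made 7.72% of the kept barcodes. Wells D12, D10 and D6 held 43, 35 and 33 of the 189. The highest share of a well was 12.8%, in D6. In the nuclei each of the 12 wells held them, from 33 to 115 barcodes, or 3.05% to 12.2% of a well. Within the cluster, RELN ran from 12 to 6873 CPM over the 10 wells of cells with 5 or more such barcodes, and from 162 to 2874 CPM over the 12 wells of nuclei.

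**Figure D5:**
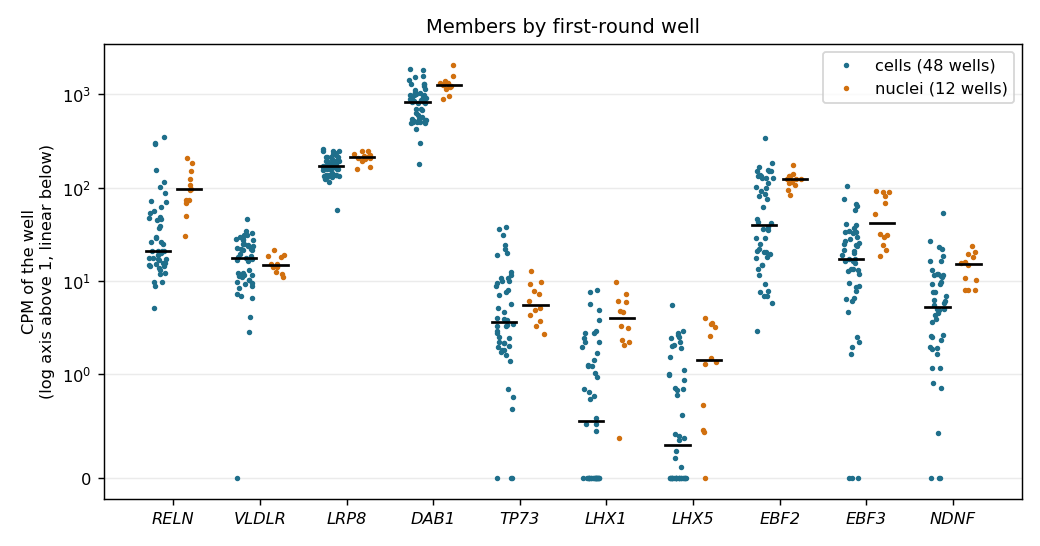
CPM of the 10 members in each first-round well (points, log axis above 1 CPM, linear below) for 48 wells of the cells and 12 of the nuclei, with black lines at the medians. RELN spans 5.13 to 348 CPM in the cells and 30.2 to 208 CPM in the nuclei, and LHX1 and LHX5 each stand at 0 in 21 wells of the cells.

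Over whole libraries, RELN was at 53.7 CPM in the cells (SD 21.9 over sub-libraries) and 92.9 CPM in the nuclei, a ratio of 1.73 of nuclei to cells. DAB1 had a ratio of 1.76, EBF2 1.89, EBF3 2.29 and LHX1 2.00, while VLDLR had 0.807 and TP73 0.729. The libraries differed in compartment, days and conditions at once, and these cannot be told apart.

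Across clusters, the genes whose levels ran most like RELN's were THSD7B, LHX1-DT, PTPRR, MGAT4C and SLC6A5 in the 22 cell clusters, with Pearson r from 0.93 to 0.89 on log2(CPM + 1). In the 19 nuclei clusters they were SLC17A6-DT, HS3ST5, ENSG00000247121, GRM4 and ST8SIA3, from 0.93 to 0.88. Among the members, LHX1 (r of 0.87) and LHX5 (0.85) came 12th and 17th of 28471 genes in the cells, and EBF3 (0.81) came 35th of 20150 in the nuclei. In the other library these ranks were far lower for EBF3 (0.25, 18026th in the cells) and lower for LHX1 (0.77, 85th) and LHX5 (0.77, 78th). DAB1 had r of -0.07 in the cells and 0.27 in the nuclei with RELN, and LRP8 had -0.27 and 0.09. Clusters of 1 library share its depth and free RNA, so these values are descriptions.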

How the data were processed

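Cells and nuclei from H9 cerebral organoids were profiled with split-pool combinatorial barcoding. Reads had been demultiplexed by the authors into 8 and 2 sub-libraries and counted against GRCh38 by the pipeline of Parse Biosciences, and the deposited matrices hold whole-number transcript counts per gene and barcode, before any filter on cells. The authors' own cell filters, doublet removal and correction for free RNA were not applied to these counts. Free RNA and merged barcodes can therefore raise low levels.

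Barcodes were kept that exceeded 500 genes and 1000 transcripts and had a mitochondrial share of 20% or less. They were clustered with scanpy 1.11.5 (2000 variable genes, 30 components, 15 neighbours, Leiden resolution 1, seed 0) without the 10 members and 40 pathway genes. A cluster was named when at least 3 markers of a type were 1.5-fold higher and in 10% of its barcodes. Clusters of low median depth also needed 1 of these markers among their 10 leading genes. Some named clusters had no marker of their type among their leading genes. For the alternative settings a stricter rule asked a Cajal-Retzius-like cluster for such a marker at any depth. Some clusters (2, 8, 13, 17, 19 and 21 in the cells, 11 in the nuclei) were left unnamed after their values were seen. Their leading genes went against the name at least in part, or they lay in few well pairs. Counts were summed per cluster, with exact Poisson intervals at 95% for levels, intervals on the log scale for ratios, and exact binomial intervals for shares of barcodes thinned to 1000 transcripts. A count of 0 was taken to allow 3 counts. Genes with 50 or more counts were called at 2-fold. Named genes were the members, pathway genes past 2-fold, the 5 leading genes of clusters that carry a member highest, and the 5 genes most like RELN. Some genes that these rules would name are not reported here. Other genes, the sub-clusters, the families, the limit of 50000 transcripts and the whole-interval rule were chosen after values were seen. Scrublet marked 0 doublets in each library and so did not work, and the 5% of cells and 3% of nuclei with the highest scores were left out as an alternative. The scripts were tested on simulated data. No p-value was computed, since each library is 1 sample. Depth was 157306492 transcripts in kept cells and 72162726 in kept nuclei, and the median of the kept barcodes limits what a share can show. The members and lists were chosen with earlier results of these data known.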

Additional observations from a re-analysis of the deposited data

Results flagged for a closer look

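Transcripts of each member were present in data outside the comparisons, the barcodes with 10 to 100 transcripts, which hold free RNA and debris (1022725 barcodes in the cell library and 167580 in the nuclei library). Each level was above the limit that a count of 0 allows. In the cell library they were 68.6 CPM for RELN, 20.9 for VLDLR, 163 for LRP8, 795 for DAB1, 8.04 for TP73, 1.14 for LHX1, 1.37 for LHX5, 64.3 for EBF2, 24.3 for EBF3 and 8.74 for NDNF. In the nuclei library they were 96.1 CPM for RELN, 15.9 for VLDLR, 192 for LRP8, 1367 for DAB1, 5.80 for TP73, 2.60 for LHX1, 1.68 for LHX5, 125 for EBF2, 41.1 for EBF3 and 10.4 for NDNF. For RELN, VLDLR and EBF3 in the cell library the whole counting interval lay above the whole interval of the kept barcodes (levels of 53.7, 18.1 and 20.4 CPM). For the other 7 members, and for each of the 10 in the nuclei library, it did not.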

How the results depend on the processing

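No paired analysis was possible because each group is 1 library and no test was run. RELN stayed above the other barcodes in the Cajal-Retzius-like cluster under each alternative that gave one. In the cells the RELN ratio was 57.9 above 5000 transcripts, 52.9 with members and pathway genes used for clustering, 55.9 with another seed and 15.8 when each cluster meeting 3 Cajal-Retzius markers was counted (1142 barcodes). The share of RELN transcripts from the cluster was 35.5% above 5000 transcripts, 36.4% without the highest doublet scores, 40.7% with members used for clustering, 33.4% with another seed, 35.5% at resolution 2, 42.8% at or below 50000 transcripts and 45.3% with each such cluster counted. That last choice turned the DAB1 ratio to 1.09 and moved the LRP8 ratio to 0.734, the DAB1 ratio was 0.731 at or below 50000 transcripts, and the VLDLR ratio turned to 0.985 with members used for clustering. No cluster of the cells met the stricter rule for a Cajal-Retzius-like cluster at a mitochondrial limit of 10%, at resolution 0.5 or without families.

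In the nuclei the RELN ratio was 68.7 above 2000 and 50.8 above 5000 transcripts, 60.3 at a mitochondrial limit of 10%, 75.3 without the highest doublet scores, 78.0 with members used for clustering, 62.4 with another seed, 43.4 at resolution 0.5 and 59.7 at or below 50000 transcripts. The share of RELN transcripts was 75.1% above 2000 and 80.7% above 5000 transcripts, 71.3% at the 10% limit, 76.1% with another seed and 75.1% at resolution 0.5. The DAB1 ratio was 0.746 above 5000 transcripts, 0.856 at the 10% limit, 0.850 without the highest doublet scores, 0.838 with members used for clustering, 0.820 with another seed and 0.844 at or below 50000 transcripts. The LRP8 ratio was 0.677 without the highest doublet scores and 0.688 with members used for clustering. At resolution 2 the naming rule chose another cluster (224 nuclei), with ratios of 1.22 for RELN, 0.531 for DAB1, 1.06 for VLDLR and 0.894 for LRP8, 2 members past 2-fold and 3.25% of RELN transcripts. The cluster there that shared most with the reported one had a RELN ratio of 88.5 and 6 members past 2-fold, and its DAB1 ratio turned to 1.08.

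The share of RELN-carrying barcodes with DAB1 followed depth by construction: 57.3% in cells and 69.0% in nuclei thinned to 2000 transcripts, and 82.7% and 78.0% unthinned. With 2 or more RELN transcripts it was 38.6% in the cells. Of the 5 genes most like RELN, 2 in the cells and 3 in the nuclei were shared with log2(CPM + 10). RELN in the TP73-led sub-clusters ran from 2655 to 5112 CPM in the cells and from 6001 to 8255 CPM in the nuclei over the clustering settings. The lowest was at resolution 1 in 33 cells, 32 of them among the 54 TP73-led cells, whose other barcodes then counted in the rest. At that resolution the sub-cluster held 21.7% of the cluster's RELN instead of 84.9%, and the rest had RELN at 1510 CPM. LHX1 was nearly level (56.6 against 52.4 CPM), while NDNF (18.9 against 42.3 CPM), EBF3 (388 against 418 CPM), DAB1 (339 against 524 CPM) and VLDLR (26.4 against 17.9 CPM) turned direction. These contrasts set part of the TP73-led cells against a rest that held the others. Depth limits LHX1, LHX5, TP73 and NDNF most, which were in the fewest kept barcodes of the 10 members.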

Other observations

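Some other groups of barcodes with EBF factors or GAD1 are given by their values. A cluster of 33 cells, from 1 first-round well and each in a family of shared well barcodes, was led by ENSG00000270207, RSPO3 and CYP1B1. It had EBF2 at 1605 CPM, EBF3 at 851 CPM, TP73 at 195 CPM and no RELN transcript. Its median depth was 1165 transcripts, so the absence of RELN in any 1 of these barcodes says little. Within the Cajal-Retzius-like nuclei, 131 barcodes led by EYA2 had EBF1 at 2888 CPM and EBF2 at 957 CPM with RELN at 24.9 CPM. A further 41 nuclei led by LINC01210, SOX14 and GATA3 had GAD1 at 1003 CPM and RELN at 359 CPM. Another 28 led by DLX6-AS1 had GAD1 at 368 CPM and no RELN transcript, which allows up to 22.1 CPM.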
